A study of Mus musculus with 27 samples.

Results

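The 10 endothelial genes described here are Pecam1, Cdh5, Kdr, Flt1, Tek, Esam, Eng, Lyve1, Prox1 and Cldn5. They were taken by symbol from a count table of 23420 mouse genes, and all 10 had a row. The mice were C57BL/6 animals given water (control) or 15% ethanol for 8 weeks. Colon and jejunum were sampled as tissue and as organoids, which are cultures grown from intestinal epithelium by the method of Sato and Clevers. There were 4 control and 4 ethanol libraries of colon tissue, 3 control and 4 ethanol libraries of jejunum tissue, 2 control and 2 ethanol libraries of colon organoids, and 4 control and 4 ethanol libraries of jejunum organoids. The labels do not say whether ethanol was added to the cultures, which layers of the gut wall the tissue samples held, or the age of the mice.

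Endothelial cells line blood and lymphatic vessels, and in the gut wall they form the capillaries of the mucosa, the larger vessels below it and the lacteals that take up fat. VEGF ligands act on them through the receptor kinases encoded by Kdr and Flt1, angiopoietins act through Tek, and cadherin, claudin and immunoglobulin-type adhesion proteins hold neighbouring cells together and set how leaky a vessel is. Organoids grown from crypts contain epithelium and are not expected to hold vessels, so they serve here as samples without a vessel lining.

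The libraries were made with QuantSeq, which counts 1 fragment near the 3' end of each polyadenylated RNA. Total counts ranged from 1337068 to 16312562 per library. A single row, the ribosomal precursor Rn45s, took 18.3% to 48.3% of the counts in colon tissue and organoids and 53.4% to 84.3% in jejunum tissue, so levels are given as CPM with the library total taken outside Rn45s. Counts outside Rn45s ranged from 684906 to 7606668, and 1 count was worth between 0.131 and 1.46 CPM. The 10 genes together took 67.6 to 246 CPM in the 15 tissue libraries and 0 to 38.2 CPM in the 12 organoid libraries. In these bulk samples a lower value can mean fewer endothelial cells or less RNA per cell, and these cannot be told apart. The libraries carry donor numbers that recur across groups and both treatments, but p-values measure only the spread between these samples. Tests are edgeR quasi-likelihood tests fitted on all genes, with Benjamini-Hochberg adjustment over all of them and with calls made below an adjusted p of 0.05. Fold changes are on the log2 scale after TMM scaling, so they need not equal the ratio of the CPM values.

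**Figure D1:**
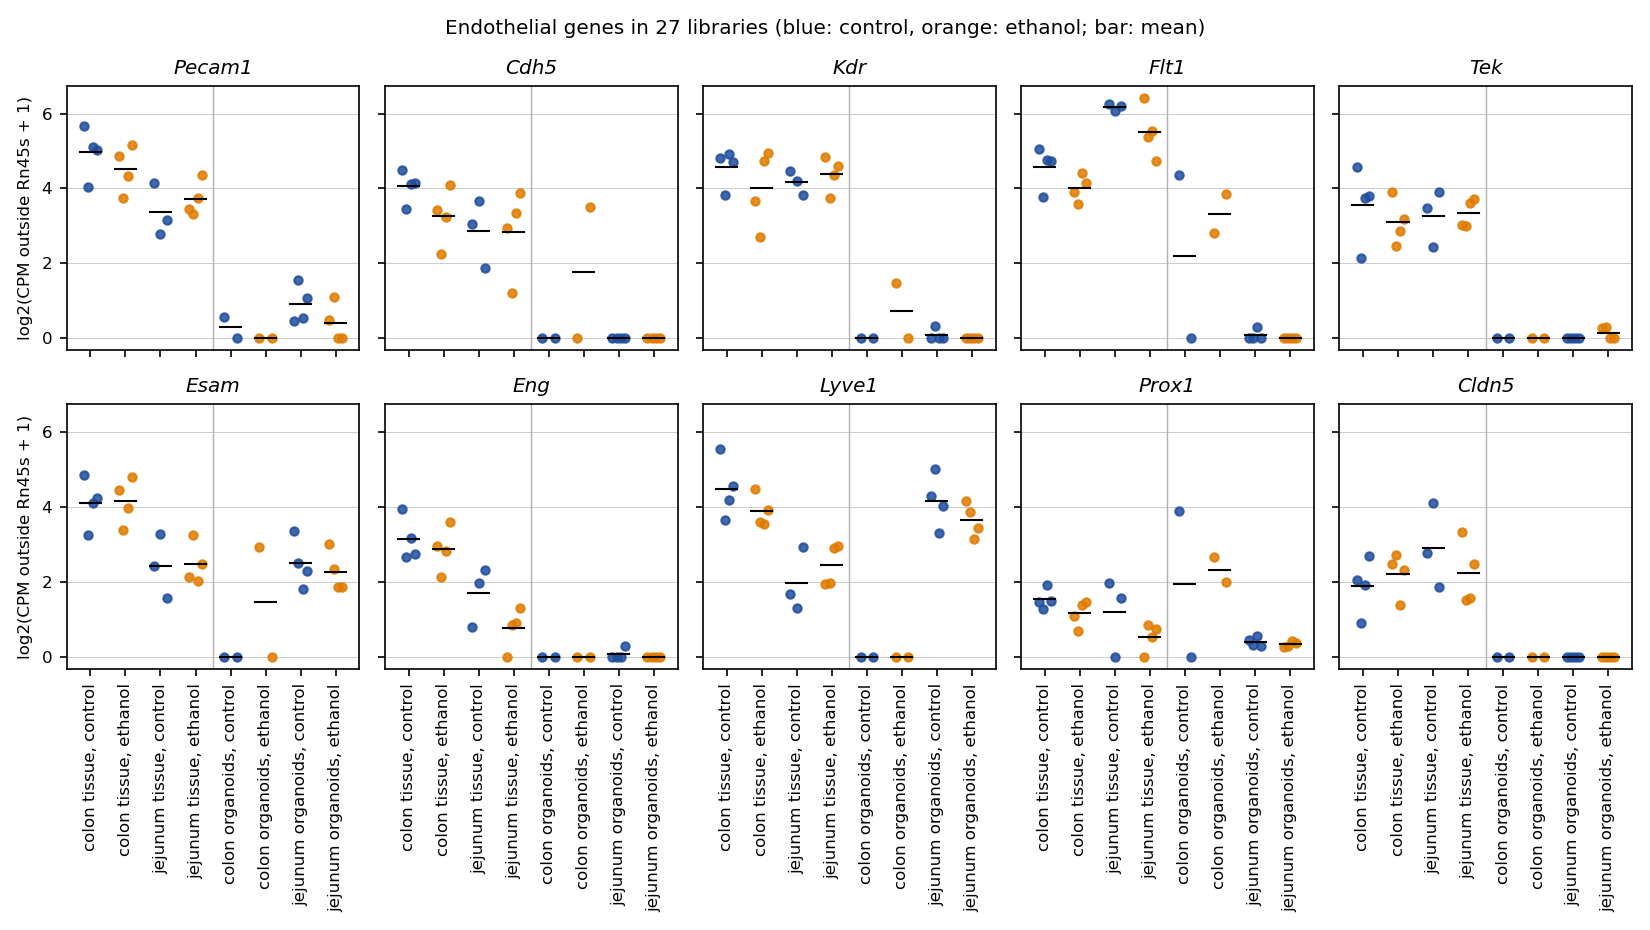
Each panel shows 1 gene as log2(CPM outside Rn45s + 1) on the vertical axis in the 8 groups, with 1 point per library (blue control, orange ethanol) and a bar at the group mean of the plotted values. Cdh5, Kdr, Tek, Eng and Cldn5 lie at or near 0 in most organoid libraries, Flt1 is highest in jejunum tissue, and Lyve1 reaches 7.91 to 31.1 CPM in jejunum organoids but 0 in colon organoids.

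No endothelial gene was called for ethanol in tissue. In colon tissue 0 of the 10 genes passed the edgeR test, where 0.00744% of 13434 genes did, and none of the 10 had an unadjusted p under 0.05 (324 genes did). DESeq2 and limma-voom also called 0 of the 10. The fitted log2 changes ran from -0.77 for Lyve1 to 0.29 for Cldn5, with 8 of the 10 below 0 and a median of -0.52, against -0.003 over all genes tested. Every adjusted p was 1. Of 11 adipocyte markers tested in colon tissue 10 were below 0, with a median of -1.77 and none called, and of 12 smooth muscle markers 10 were above 0, with a median of 0.08. All 12 enteric neuron and glia markers were below 0 (median -0.34), as were 12 of 14 epithelial (-0.19) and 9 of 12 fibroblast markers (-0.34). In jejunum tissue all 12 smooth muscle markers (median -0.57) and all 11 adipocyte markers (-1.13) were below 0. None of these markers was called. Their part in the endothelial values was not tested. In jejunum tissue the count was again 0 of 10, at a background of 0% (0 of 13434 genes, 1534 at an unadjusted p under 0.05). None of the 10 had an unadjusted p under 0.05 there, and DESeq2 and limma-voom called none of them. The jejunal changes ran from -1.70 for Prox1 to 0.47 for Lyve1, with 5 above and 5 below 0. The difference between the 2 ethanol effects was called for 0 of the 10 and for 0% of all genes (894 at an unadjusted p under 0.05). Its values for the 10 genes ran from -1.24 for Lyve1 to 1.13 for Prox1.

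**Figure D2:**
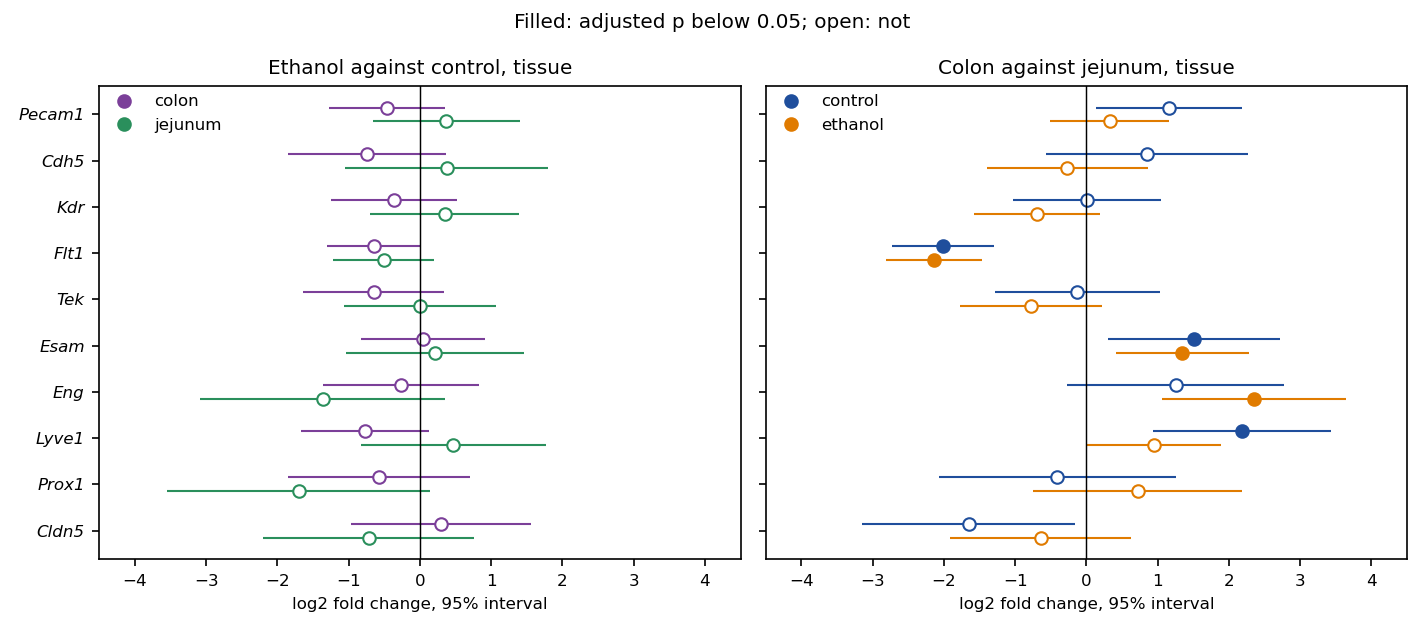
Horizontal axes give log2 fold changes in tissue with 95% intervals for ethanol against control (left, by segment) and for colon against jejunum (right, by treatment), with filled points at an adjusted p below 0.05. No point is filled for ethanol, whereas Flt1 lies below 0 and Esam above 0 in both treatments of the segment comparison.

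Of the 2 VEGF receptors, Flt1 was called between the segments of the gut and Kdr was not. Kdr (VEGFR2), which carries most of the growth and permeability signal of VEGF-A, lies on chromosome 5 at 75932827 to 75978458 on the minus strand (GRCm38). Flt1 (VEGFR1), which binds VEGF-A tightly, signals weakly and is also made as a soluble decoy, lies on the same chromosome and strand at 147561604 to 147726011. Gene counts do not separate soluble from membrane-bound Flt1. The 250 bases upstream of each start site, from RefSeq on GRCm38.p6, are shown for this pair of receptors, whose levels are set side by side next. Capitals mark matches on either strand to 4 motifs. CCGGAA and CAGGAA are 2 of the GGAA-containing sequences bound by ETS factors, which drive many endothelial promoters. Other GGAA sequences were not marked. GGGCGG is the GC box bound by SP family factors. TATAAA is the core element bound by the general factor TBP.
Kdr (chr5:75978456-75978705, minus strand): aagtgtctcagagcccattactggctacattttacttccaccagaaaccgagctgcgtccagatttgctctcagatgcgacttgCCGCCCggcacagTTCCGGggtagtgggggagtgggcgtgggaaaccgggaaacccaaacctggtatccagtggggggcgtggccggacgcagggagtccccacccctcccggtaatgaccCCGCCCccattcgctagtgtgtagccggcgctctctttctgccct
Flt1 (chr5:147726012-147726261, minus strand): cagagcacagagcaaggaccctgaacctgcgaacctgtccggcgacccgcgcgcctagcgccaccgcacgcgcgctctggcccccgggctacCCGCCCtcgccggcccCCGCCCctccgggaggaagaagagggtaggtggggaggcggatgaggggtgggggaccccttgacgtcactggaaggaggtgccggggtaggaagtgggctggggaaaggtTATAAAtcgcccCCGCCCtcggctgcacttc
Kdr held 2 GC boxes, at 166 and 45 bases before the start, and 1 CCGGAA match at 153 bases, with no TATAAA. Flt1 held 3 GC boxes, at 158, 142 and 19 bases, and a TATAAA at 31 bases, with neither CCGGAA nor CAGGAA. It does hold GGAA in other contexts, so ETS sites are not shown to be absent. Of 32851 windows of the same length, 32.7% held a GC box, 12.03% a CCGGAA, 25.7% a CAGGAA and 12.4% a TATAAA. These matches describe letters only. Both windows were rich in G and C (61.6% for Kdr and 70.4% for Flt1, against a median of 52.4% over all windows).

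Flt1 was higher in jejunum than in colon tissue. The 4 control colon libraries held 32.0, 12.7, 26.1 and 25.6 CPM and the 3 control jejunum libraries 75.5, 65.7 and 72.2. Ethanol colon tissue held 14.1, 11.1, 20.1 and 16.7 CPM and ethanol jejunum tissue 84.3, 40.4, 44.9 and 25.5. Within each treatment no jejunum library overlapped a colon library. The means were 24.1 ± 8.11 (SD, n = 4) against 71.1 ± 4.97 (n = 3) in controls and 15.5 ± 3.84 (n = 4) against 48.8 ± 25.1 (n = 4) in ethanol. Colon was lower by a log2 change of -2.01 (SE 0.34, edgeR adjusted p = 0.000163) in controls, a comparison in which 42.1% of all genes were called. With ethanol the change was -2.14 (SE 0.32, adjusted p = 3.43e-05), where 48.1% of all genes were called. In controls 3 of the 10 endothelial genes were called (Flt1, Esam and Lyve1), and with ethanol 3 of 10 (Flt1, Esam and Eng). Both counts are below the share of all genes called.

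The scaling matters for this comparison. The median over all genes of colon against jejunum was 0.36 in controls and 0.17 with ethanol, and it moved to 0.76 and 0.70 when Rn45s was dropped and no TMM factors were used. The share of calls that were higher in colon moved with it, from 59.5% to 76.7% in controls and from 54.0% to 77.1% with ethanol. Flt1 stayed called in both treatments under all alternatives run (16 in controls, 17 with ethanol), with changes between -2.29 and -1.56 in controls and between -2.35 and -1.63 with ethanol. Ethanol against control gave -0.64 (SE 0.32, 95% interval -1.3 to 0.02, unadjusted p = 0.0572, adjusted p = 1) in colon and -0.51 (SE 0.34) in jejunum for Flt1, neither of them called.

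Kdr was not called between segments in either treatment. Control colon tissue held 26.9, 13.3, 29.1 and 25.0 CPM and control jejunum tissue 21.05, 17.5 and 13.2, with overlapping ranges. With ethanol the values were 11.6, 5.55, 25.4 and 29.6 CPM in colon and 27.6, 12.5, 19.4 and 23.4 in jejunum. The log2 change between segments was 0.01 (95% interval -1.03 to 1.05, adjusted p = 0.985) in controls, with a sign that turned in 10 of 16 alternatives. It was -0.69 (adjusted p = 0.186) with ethanol. The counts of Flt1 per count of Kdr, a ratio that does not depend on scaling, were 0.896 to 1.19 in control colon tissue and 3.59 to 5.45 in control jejunum tissue. With ethanol they were 0.564 to 2 in colon and 1.09 to 3.23 in jejunum, so those ranges overlapped.

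**Figure D3:**
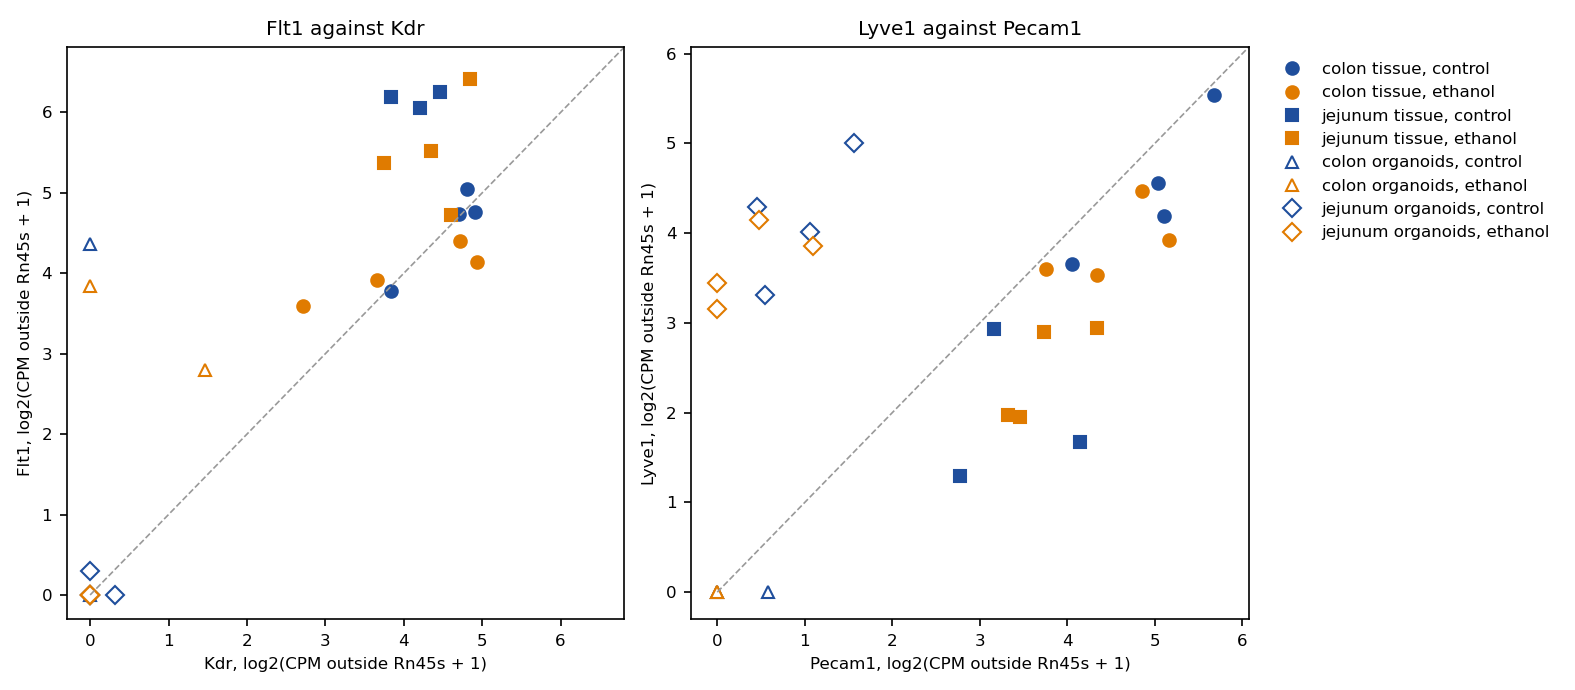
Points are libraries (filled tissue, open organoids; blue control, orange ethanol) placed by log2(CPM outside Rn45s + 1) of Kdr and Flt1 (left) and of Pecam1 and Lyve1 (right), with equality as a dashed line. The 3 control jejunum tissue libraries lie at 65.7 to 75.5 CPM of Flt1 with 13.2 to 21.05 CPM of Kdr, and the 8 jejunum organoid libraries hold 7.91 to 31.1 CPM of Lyve1 with at most 1.96 CPM of Pecam1.

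Tek, the angiopoietin receptor TIE2 on chromosome 4 (94739289 to 94874976, plus strand), was spread widely within groups. Control colon tissue ranged from 3.39 to 22.8 CPM, ethanol colon tissue from 4.56 to 14.1, control jejunum tissue from 4.38 to 13.9 and ethanol jejunum tissue from 6.91 to 12.1. All 4 ranges overlapped. The segment change was -0.13 (adjusted p = 0.869) in controls, and it turned to 0.38 without TMM factors. With ethanol it was -0.78 (adjusted p = 0.186).

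Eng encodes endoglin, a co-receptor for BMP and TGF-beta ligands on dividing endothelium, on chromosome 2 (32646595 to 32682669, plus strand). Control colon tissue held 14.5, 5.37, 7.95 and 5.68 CPM and ethanol colon tissue 6.82, 3.37, 6.11 and 11.1. Jejunum tissue held 0.726, 2.92 and 3.97 CPM in controls (1, 2 and 6 counts) and 0, 0.797, 0.864 and 1.45 with ethanol (0, 3, 4 and 11 counts). Colon lay above jejunum without overlap in both treatments. The change was called with ethanol, 2.36 (SE 0.62, adjusted p = 0.00419), and kept its call under the 17 alternatives. In controls it was 1.26 (SE 0.73, adjusted p = 0.171). The opposite-strand gene Fpgs covers the 3' end of Eng, and no source used here states how the counting treated strand, so the Eng values are uncertain. Fpgs itself held a mean of 16.3 CPM in control colon tissue and 4.93 in control jejunum tissue. In control jejunum organoids it held a mean of 38.7 CPM, where Eng had 1 count over the 4 libraries. The part of Fpgs in the Eng values was not tested.

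Among the 4 adhesion and junction genes, Esam was called between segments and the other 3 were not. Esam, an immunoglobulin-type adhesion protein of endothelial tight junctions and platelets, lies on chromosome 9 at 37528078 to 37538319 on the plus strand. Colon tissue held 27.7, 8.48, 16.2 and 17.9 CPM in controls and 20.7, 9.51, 14.7 and 26.96 with ethanol. Jejunum tissue held 4.35, 8.76 and 1.99 CPM in controls (6, 6 and 3 counts) and 3.33, 8.50, 3.02 and 4.6 with ethanol. In controls 1 jejunum library (8.76) lay just above the lowest colon library (8.48), and with ethanol the ranges did not overlap. The changes were 1.51 (SE 0.58, adjusted p = 0.0416) in controls and 1.35 (SE 0.44, adjusted p = 0.0180) with ethanol. The control call was lost in 9 of 16 alternatives, including limma-voom (adjusted p = 0.0722), the donor number nested in treatment as a block (0.121), and leaving out control colon library 1 (0.100) or control jejunum library 3 (0.180). The ethanol call was lost in 3 of 17, including the same nested block (0.0568). The next gene on the same strand, Vsig2, starts 936 bases beyond the end of Esam and held a mean of 19.8 CPM in control colon tissue against 1.64 in control jejunum tissue. Its part in the Esam counts was not tested.

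Pecam1 (PECAM-1 or CD31) is an adhesion receptor of endothelium, platelets and some leukocytes, on chromosome 11 (106654217 to 106750628, minus strand). Control colon tissue held 50.1, 15.6, 33.5 and 31.9 CPM and control jejunum tissue 16.7, 5.84 and 7.95. Ethanol colon tissue held 28.0, 12.5, 19.2 and 34.9 CPM and ethanol jejunum tissue 10.001, 9.03, 12.3 and 19.3. The ranges overlapped in both treatments. The segment change of 1.16 (SE 0.49) in controls missed the threshold (adjusted p = 0.0634) and passed it without TMM factors (1.64, adjusted p = 0.0103), with the replicate block (1.06, adjusted p = 0.0329) and with the nested block (1.25, adjusted p = 0.0318). It also passed without control colon library 2 (1.36, adjusted p = 0.0360) or control jejunum library 1 (1.74, adjusted p = 0.0316). With ethanol it was 0.33 and was not called.

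Cdh5, which encodes VE-cadherin, the adhesion protein of endothelial adherens junctions, lies on chromosome 8. Its tissue values ran from 9.90 to 21.6 CPM in control colon, 3.76 to 16.1 in ethanol colon, 2.65 to 11.7 in control jejunum and 1.33 to 13.7 in ethanol jejunum. The segment change was 0.85 (adjusted p = 0.32) in controls. With ethanol it was -0.27, and 0.28 without TMM factors. Cldn5, a claudin that seals tight junctions of endothelium, lies on chromosome 16 (18776847 to 18778262, plus strand) and was low throughout tissue, from 0.848 to 16.1 CPM. In control jejunum tissue it held 5.81, 16.1 and 2.65 CPM (8, 11 and 4 counts), against 3.15, 0.848, 2.74 and 5.48 in control colon tissue. The change of -1.65 (SE 0.71) missed the threshold with edgeR (adjusted p = 0.0683) and passed it with DESeq2 (-1.75, adjusted p = 0.0300).

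Lyve1 encodes a hyaluronan receptor of lymphatic endothelium and some tissue macrophages and lies on chromosome 7 (110850607 to 110863239, minus strand). Control colon tissue held 45.5, 11.6, 17.3 and 22.5 CPM and control jejunum tissue 2.18, 1.46 and 6.62 (3, 1 and 10 counts). Ethanol colon tissue held 21.2, 11.1, 10.6 and 14.2 CPM and ethanol jejunum tissue 2.86, 2.92, 6.48 and 6.70. Colon lay above jejunum without overlap in both treatments. In controls the change was 2.19 (SE 0.60, adjusted p = 0.00725) and it kept its call under the 16 alternatives. With ethanol the change was 0.94 (SE 0.45) and missed the threshold (adjusted p = 0.0940), while DESeq2 (1.08, adjusted p = 0.0357) and the fit without TMM factors (1.53, adjusted p = 0.00986) called it. The ethanol change in Lyve1 was -0.77 (SE 0.43) in colon tissue and 0.47 (SE 0.62) in jejunum tissue, neither called.

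Prox1, the transcription factor that sets lymphatic identity and is also made in some enteroendocrine cells, lies on chromosome 1. It was at 2.90 CPM or below in every tissue library, with at most 4 counts in a control jejunum library. No Prox1 change in tissue was called. The largest was -1.70 (SE 0.88) for ethanol in jejunum (unadjusted p = 0.0686, adjusted p = 0.483).

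Marker sums of some other cell types also differed between the segments. Summed over 12 smooth muscle markers, colon tissue held 5450 to 29574 CPM and jejunum tissue 823 to 4246. The 12 pericyte and mural markers summed to 229 to 1056 CPM in colon and 44.1 to 139 in jejunum tissue, and the 12 fibroblast markers to 627 to 3556 and 153 to 507. Other sums were higher in jejunum. The 14 epithelial markers summed to 6426.5 to 10829.5 CPM in colon and 13094 to 17085 in jejunum tissue. The 12 platelet and megakaryocyte markers summed to 25.2 to 68.7 and 82.7 to 99.3. Colon tissue library 1 of each treatment had the highest smooth muscle sum, 22881 CPM in the control and 29574 in the ethanol group, against 7233 or less in the other 6 colon tissue libraries. The control one also held the highest endothelial sum, 246 CPM, and the highest Pecam1, Cdh5, Flt1, Tek, Esam, Eng and Lyve1 of its group. Without these 2 libraries 2 of the 10 genes were called between segments in controls and 3 with ethanol, and Esam in controls was no longer called (1.11, adjusted p = 0.172). Macrophage markers, which matter for Lyve1, summed to 108 to 257 CPM in colon and 137 to 264 in jejunum tissue. Their part in the results was not tested.

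**Figure D4:**
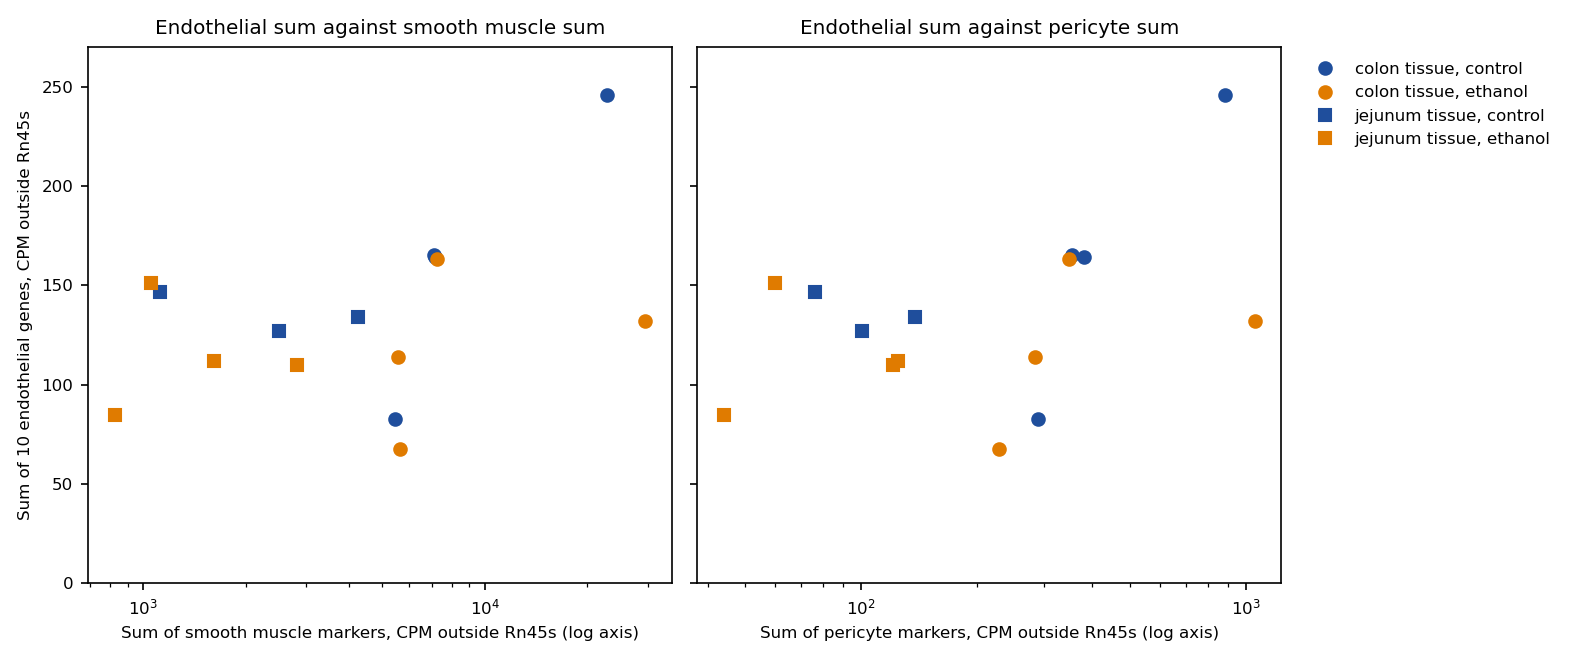
Points are the 15 tissue libraries, with the sum of the 10 endothelial genes (CPM outside Rn45s) on the vertical axis against the sum of smooth muscle markers (left) and of pericyte markers (right) on log axes. Control colon tissue library 1 is the highest on the vertical axis at 246 CPM, while the ethanol colon library with the highest smooth muscle sum lies at 132.

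Other genes of the same vessels, in lists drawn up from textbook markers, gave mixed directions between segments. Of 32 other blood endothelial genes tested, 6 were higher and 2 lower in control colon than in control jejunum, with a median change of 0.65 against 0.36 over all genes, of which 42.1% were called. With ethanol it was 3 and 3, with a median of 0.38 against 0.17, where 48.1% of all genes were called. Without TMM factors these counts became 11 and 0 in controls and 6 and 1 with ethanol, so the split of directions depends on the scaling. Clec14a, a C-type lectin of endothelium, was higher in colon in both treatments (2.82 and 3.54). Ptprb, the phosphatase that opposes TIE2, was lower in both (-1.49 and -1.35), as was the transcription factor Sox13 (-1.01 and -1.32).

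Of 10 lymphatic genes tested, 5 were higher and 1 lower in control colon, and 6 and 1 with ethanol, with median changes of 1.20 and 1.27, against 42.1% and 48.1% of all genes called in either direction and medians of 0.36 and 0.17. The gap junction gene Gja1 (2.34 and 1.5), the guidance ligand Sema3a (5.24 and 5.08) and the nuclear receptor Nr2f2 (1.13 and 1.3) were higher in colon, and the transcription factor Maf was lower (-3.84 and -4.36). Each of these genes is also made by other cells of the gut wall. In the pathway of VEGF and angiopoietin ligands and co-receptors, 5 of 15 were higher and 1 lower in controls, and 4 and 3 with ethanol, beside the same shares of all genes. Vegfb, a ligand of Flt1, held 49.2 CPM in control colon against 4.51 in control jejunum tissue (3.31), and Nrp2, a co-receptor of VEGF-C, held 147 against 20.3 (2.42). Tgfbr2, the TGF-beta receptor, was higher in colon as well (2.16 in controls and 2.09 with ethanol). For ethanol against control 0 of the 53 genes tested from these 3 lists were called in either tissue by edgeR or DESeq2, with 1 (Apln) at an unadjusted p under 0.05 in colon and 3 (Acvrl1, Apln and Tspan7) in jejunum.

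The organoids held little RNA of most of these genes. Control colon organoids were lower than control colon tissue for 8 of the 10, in a comparison in which 46.2% of all genes were called and 31.7% were lower. In control jejunum 8 of 10 were lower and 1 higher, at 51.3% called, 29.7% lower and 21.6% higher. With ethanol 7 of 10 were lower in colon (33.4% called, 18.7% lower) and 7 of 10 in jejunum (53.9% called, 35.2% lower). The median change of the 10 was -8.20, -6.64, -5.38 and -5.88 in these 4 comparisons, against -0.46, -0.02, -0.19 and -0.36 over all genes. Where a gene had no count in the organoids these fitted values depend on a small added count, and the floors given next replace them. Genes with few or no organoid counts, such as Cldn5, Tek and Eng, passed the filter on low counts through the tissue groups. Organoids were also not expected to hold vessels, so the counts of lower genes are not read against the shares of all genes. With limma-voom none of the 8 calls in control colon, where the organoid group has 2 libraries, was kept. Red blood cell markers summed to 2.23 CPM or less in each organoid library and to 9.93 to 526 in tissue, and smooth muscle markers to 100 to 193 CPM in organoids. Macrophage markers summed to 19.6 and 86.4 CPM in control and 146 and 463 in ethanol colon organoids, against 108 to 257 in colon tissue. Colon organoids reached 108 CPM of pericyte, 144 of fibroblast and 127 of enteric neuron and glia markers, each below all colon tissue libraries. The part of these cells in the organoid values was not tested. Without TMM factors the share of calls that were higher in organoids moved from 31.3% to 45.7% in control colon, from 42.1% to 54.6% in control jejunum and from 34.8% to 52.7% in ethanol jejunum.

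Cldn5 had no count in any of the 12 organoid libraries. Taking 3 counts over a group as the floor, which covers counting error only, Cldn5 was at least 50.3-fold lower in control jejunum organoids than in tissue, and at least 26.0-fold lower without control jejunum tissue library 2, the one at 16.1 CPM. In control colon its call was lost without control colon organoid library 1 (adjusted p = 0.116), with the nested block (0.0534) and with limma-voom (0.246). Cdh5 had no count in 11 of the 12 and was at least 44.3-fold lower in control jejunum organoids and at least 15.4-fold lower in control colon organoids, or 4.4-fold without control colon organoid library 1, the deeper of the 2. Its 14 counts in ethanol colon organoid library 2 (10.4 CPM) kept the ethanol colon comparison from being called (-1.10, adjusted p = 0.433).

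Tek had 2 counts in all, 1 in each of ethanol jejunum organoid libraries 1 and 2, and Eng had 1. Tek was at least 58.4-fold lower in control jejunum organoids and at least 12.2-fold lower in control colon organoids (3.5-fold without the same library). Kdr had 1 count in the control jejunum organoids, for a ratio of tissue to organoid of 319 (95% counting interval 57.3 to 12602.9). It had no count in the ethanol jejunum organoids, which put it at least 110-fold lower there. Pecam1 held 0 to 1.96 CPM in jejunum organoids (17 counts in the 4 control and 7 in the 4 ethanol libraries), a ratio of tissue to organoid of 11.04 (6.90 to 19.0) in controls and 28.8 (14.0 to 71.7) with ethanol. The intervals on these ratios cover counting error of the pooled organoid counts only. They leave out the error of the tissue mean and the spread between libraries, so they are too narrow.

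Flt1 had counts in 3 of the 4 colon organoid libraries. In the 8 jejunum organoid libraries it had 1 count, against a tissue mean of 71.1 CPM in controls. Control colon organoids held 19.6 and 0 CPM (40 counts and none) and ethanol colon organoids 5.98 and 13.4 (17 and 18 counts). Against colon tissue Flt1 was not called in controls (-1.34, adjusted p = 0.0867) or with ethanol (-0.74, adjusted p = 0.388). Prox1 was spread in a like way, with 13.8 and 0 CPM in control and 5.27 and 2.97 in ethanol colon organoids (28, 0, 15 and 4 counts). In control jejunum Prox1 was called lower in organoids (-2.81, adjusted p = 0.0207), a call that 5 of 14 alternatives lost, among them the nested block (adjusted p = 0.0735). Control colon organoid library 2, the shallowest colon organoid library, had no count for any of the 10 genes. Summed enteroendocrine markers were 152 CPM in control colon organoid library 1 and 2653 in library 2. Their part in the Prox1 values was not tested.

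Lyve1 was the one gene of the 10 called higher in organoids than in tissue, in control jejunum. Control jejunum organoids held 18.6, 31.1, 8.95 and 15.2 CPM (101, 127, 39 and 70 counts), above the 2.18, 1.46 and 6.62 of control jejunum tissue. Ethanol jejunum organoids held 16.7, 13.5, 7.91 and 9.89 CPM (85, 59, 24 and 34 counts), above the 2.86 to 6.70 of ethanol jejunum tissue. All 8 libraries exceeded all 7 tissue libraries. The change was 1.86 (SE 0.62, adjusted p = 0.0146) in controls, and the call was lost on leaving out control jejunum tissue library 1 (1.57, adjusted p = 0.0762) or library 2 (1.56, adjusted p = 0.0620). With ethanol it was 0.76 and missed the threshold (adjusted p = 0.185). That comparison passed without TMM factors (1.295, adjusted p = 0.0273) and with only the 2 groups in the fit (0.93, adjusted p = 0.0472).

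In the same jejunum organoids several lymphatic genes were at or near 0, but not all. Flt4 (VEGFR3) and Pdpn (podoplanin) had no count in the 8 libraries, Mmrn1 had 3, Reln 1 and Prox1 1 or 2 per library. The blood endothelial genes Emcn, Tie1, Cd34 and Plvap had 0, 1, 3 and 4 counts over the 8 libraries. Of the 40 genes on that list 11 to 16 had a count in each library, and they summed to 97.7 to 141 CPM, of which the tetraspanin Tspan7 made up a mean of 81.0 CPM in the controls. The 14 genes of the lymphatic list summed to 82.9 to 120 CPM in the control and 77.0 to 88.2 in the ethanol libraries. Nr2f2 held a mean of 56.2 CPM in the controls, where the list held a mean of 95.5, so others of the list were present too. The coding genes on either side of Lyve1 on the same strand, Rnf141 and Mrvi1, held means of 5.54 and 1.022 CPM in the control jejunum organoids. The macrophage markers summed to 6.65 to 13.9 CPM there.

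Colon organoids had no Lyve1 count in any of the 4 libraries. The fold between segments was therefore at least 17.6-fold lower in colon organoids in controls and at least 16.8-fold lower with ethanol (5.04-fold and 5.38-fold without colon organoid library 1 of the treatment), while in tissue colon was the higher of the 2. The change from tissue to organoids differed between jejunum and colon by 11.3 in controls (SE 1.61, edgeR adjusted p = 5.92e-06), where 40.5% of genes were called for such a difference. With ethanol it differed by 9.41 (SE 1.58, adjusted p = 4.27e-05), where 40.6% were. Over the alternatives run the difference was 7.93 to 12.3 in controls and 6.10 to 10.1 with ethanol. The test of this difference was added after the data had been seen. For genes without a count in the colon organoids, the sizes of fitted changes here and below depend on a small added count. A comparison of colon with jejunum organoids was added after the data had been seen, and 4 of the 10 genes passed the filter on low counts in it. All 4 were called in controls, where 49.8% of genes were: Lyve1 (-9.02, adjusted p = 0.000638) and Esam (-7.18, adjusted p = 0.0215) were lower in colon organoids, and Flt1 (6.65, adjusted p = 0.00644) and Prox1 (4.16, adjusted p = 0.00726) were higher. These 4 passed the filter through the segment where they are present, so their count is not read against that share. Without control colon organoid library 1 the changes in Flt1 and Prox1 became -1.37 and -3.37. With ethanol 3 of 4 were called (45.9% of genes): Lyve1 (-8.41), Flt1 (8.00) and Prox1 (3.82). With the donor number nested in treatment as a block, 0 of the 4 were called in either treatment. The share of control calls that were higher in colon organoids was 47.7%, and 57.9% without TMM factors.

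Esam had counts in all 8 jejunum organoid libraries. Control jejunum organoids held 9.21, 4.65, 2.52 and 3.91 CPM and ethanol jejunum organoids 7.08, 4.11, 2.64 and 2.62, overlapping the 1.99 to 8.76 of jejunum tissue. The change from tissue was -0.21 (adjusted p = 0.853) in controls and -0.72 (adjusted p = 0.318) with ethanol. Colon organoids held no Esam count except in ethanol library 1 (19 counts, 6.68 CPM), and the lower level of ethanol colon organoids against tissue (-2.18, adjusted p = 0.0367) lost its call in 5 of 15 alternatives, among them leaving out ethanol colon organoid library 2 (-1.36, adjusted p = 0.264). Vsig2, the gene downstream of it, had a mean of 0.460 CPM in the control jejunum organoids.

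Outside the 10, most genes of the other blood endothelial list were lower in the organoids. Of 34 genes tested, 22 were lower in control colon organoids and 23 lower and 1 higher in control jejunum organoids. With ethanol 19 were lower in colon, and 28 were lower and 1 higher in jejunum. The shares of all genes called lower in these comparisons were 31.7%, 29.7%, 18.7% and 35.2%. Here too genes low in organoids could pass the filter through tissue, so the counts are not read against these shares. Cd34 fell from 27.4 to 0.0574 CPM and Plvap, which forms the diaphragms of fenestrated capillaries, from 41.3 to 0.122 in control jejunum. The exception was Tspan7, a tetraspanin, with 81.0 CPM in control jejunum organoids against 23.0 in tissue (1.48, SE 0.29). Among VEGF pathway genes the ligands Vegfa (100 against 32.4 CPM, 1.27) and Vegfb (49.5 against 4.51 CPM, 3.37) were higher in control jejunum organoids than in tissue. The co-receptors Nrp1 (0.775 against 85.9 CPM) and Nrp2 (0.888 against 20.3 CPM) were lower. For Tspan7, Vegfa, Vegfb, Nrp1 and Nrp2 the direction was the same in ethanol jejunum.

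No member was called for ethanol in organoids. In colon organoids 0 of 4 tested were called while 17.3% of genes were (1 of the 4 had an unadjusted p under 0.05, and DESeq2 called 1). The 4 passed the filter over the organoids of both segments. Lyve1, which is 1 of them, had no count in colon organoids and could not be called there. The count is therefore not read against that share. Esam had the smallest adjusted p there, at 0.0834. The share of all calls that were higher with ethanol was 70.0%, and 55.6% without TMM factors. In jejunum organoids 0 of 4 were called at a background of 0% (144 genes at an unadjusted p under 0.05, none of the 4 among them, and DESeq2 called none of the 4). Flt1 had 1 count in all over these 8 libraries and Prox1 had 1 or 2 per library, so both were near the floor. The changes there were -0.61 (SE 0.45) for Lyve1 and -0.30 (SE 0.77) for Esam, with adjusted p values of 1.

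Correlations among the 10 genes are given as a description. The median Pearson r over the 45 pairs was 0.70 across the 8 colon tissue libraries (41 of 45 above 0) and -0.03 across the 7 jejunum tissue libraries (20 of 45 above 0). Points share libraries that differ in smooth muscle content and depth. Genes among the 8 most like the mean z-score of the 10 over the 15 tissue libraries, among 11039 genes at a mean of 5 CPM or more, were Gpr116 (r = 0.90), an adhesion receptor of endothelium also known as Adgrf5, then Col6a1 (0.85), Pip4k2a (0.85), Efemp1 (0.84), Gpx3 (0.84), Tmem158 (0.83) and Igf1 (0.82). For Gpr116 r was 0.99 within colon tissue and 0.19 within jejunum tissue.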

How the data were processed

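RNA of 27 libraries from tissue and organoids was measured by 3' sequencing. The deposited values are raw counts per gene symbol for 23420 symbols. Per the submitters' processing notes the tools were Trimmomatic 0.32, BWA, HTSeq, limma and edgeR, with mm10 as the build, and their settings are not given in the sources used here. A normalized table was not used. From the counts, levels were computed as CPM outside Rn45s, and tests were run in R 4.3.3 with edgeR 4.0.16 (TMM over all genes, filterByExpr, robust quasi-likelihood fit, Benjamini-Hochberg over all genes tested). A fit on the 15 tissue libraries served ethanol and segment comparisons, 1 on the 12 organoid libraries served organoids, and 1 on all 27 served organoids against tissue. Standard errors are the log2 change divided by the square root of F, and intervals use a t quantile. Alternatives were DESeq2 1.42.0, limma-voom (limma 3.58.1), no filter, Rn45s left out with and without TMM factors, blocks, fewer groups and leaving out each library. The script was tested on simulated counts. The nested block uses the donor number within each treatment, since 1 number recurs in both treatments and a mouse had 1 diet. Same-numbered libraries did not correlate above 0.1 in every pair of any comparison (r from -0.13 to 0.59). The highest values, 0.59 and 0.51, were of numbers 1 and 3 between control and ethanol colon tissue, which came from different mice. Why these libraries were alike was not tested. No 2 replicates were alike within sampling noise (chi-square per degree of freedom 3.32 or more over 35 pairs). The members and gene lists were chosen with earlier results of these data known. All 10 members are named in every comparison, with up to 3 called genes per direction of each other list by smallest p, from which those of the vessel lists are given, and the 8 genes most like the members' mean z-score, of which 1 is not reported here. Sequences come from RefSeq promoter windows, which held 6 of the 10 members. Loci come from GENCODE on GRCm38.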

Additional observations from a re-analysis of the deposited data

Results flagged for a closer look

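In the control jejunum organoids 3 values stood apart from the other libraries of their group of 4: Kdr in library 2 (0.245 CPM), Flt1 in library 3 (0.229 CPM) and Eng in library 4 (0.217 CPM). Each is a single count where the other 3 libraries had none. These were the only flags among 42 groups examined. The rule divides the gap to the nearest value by the range, so a single count beside libraries with none is always flagged. No chance rate is given for such counts, and the flags carry no weight.

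The difference between organoids and tissue was itself different in jejunum and colon for 4 members in controls, where 40.5% of all genes were called, by the edgeR interaction term (jejunum minus colon, log2). It was -8.73 for Flt1, 8.76 for Esam, 11.3 for Lyve1 and -4.48 for Prox1. With ethanol, where 40.6% of genes were called, it was -7.28 for Cdh5, -5.77 for Kdr, -10.2 for Flt1 and 9.41 for Lyve1. The share of calls above 0 was 41.7% with ethanol and 59.0% without TMM factors. The interaction was added after the data had been seen. Most of these values rest on few counts in the colon organoids. Without control colon organoid library 1 the control value was -0.52 for Flt1 and 3.14 for Prox1, without ethanol colon organoid library 2 that for Cdh5 was -0.26, and without ethanol colon organoid library 1 that for Kdr was -0.69. Lyve1 in both treatments and Flt1 with ethanol kept their calls under all alternatives run.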

How the results depend on the processing

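Of 52 called member results, 766 of their 829 alternatives kept direction and call, 60 kept the direction without the call and 3 reversed. Precision is limited by depth: in jejunum tissue Eng and Prox1 rest on 11 counts or fewer per library. In control jejunum tissue the same holds for Cdh5, Esam (3 to 6 counts), Lyve1 and Cldn5. With the replicate block (donor number) 0 members were called for ethanol in each tissue and in each kind of organoid, 3 in each tissue segment comparison, and 2 (control) and 1 (ethanol) in the organoid segment comparisons, where the block nested in treatment gave 0 and 0. limma-voom called 0 members in the control organoid segment comparison, 0 in control colon organoids against tissue and 2 in the control interaction. DESeq2 called 1 for ethanol in colon organoids, and fits with only the 2 groups called 2 in the control organoid segment comparison and 3 in control jejunum organoids against tissue. Leaving out single libraries gave 1 to 4, 0 to 1 and 2 to 4 members for the control organoid segment comparison, ethanol in colon organoids and the control interaction. CPM on library sizes that include Rn45s, scaled by TMM factors, put the summed members at 85.04, 62.2, 96.4 and 85.9 in control and ethanol colon and jejunum tissue, and at 7.56, 12.1, 13.5 and 8.96 in control and ethanol colon and jejunum organoids. Apart from Flt1 and Prox1 without control colon organoid library 1, signs that turned belonged to changes that were not called. For ethanol in colon tissue these were Cldn5 with limma-voom (-0.21) and Eng without colon tissue library 1 of both treatments (0.12), and in jejunum tissue Tek with limma-voom (0.10) and with the block (0.0744) and Cdh5 with the block (-0.11). For control colon against jejunum tissue Kdr turned with DESeq2 (-0.0392), Rn45s left out (-0.0390), the block (-0.16), the nested block (-0.0369), without colon tissue library 1 of both treatments (-0.17) and with only 2 groups (-0.0388). Without TMM factors Tek in that comparison (0.38), Cdh5 with ethanol (0.28) and Esam in control jejunum organoids against tissue (0.16) turned. On leaving out single libraries the ranges were, for ethanol in colon tissue, -0.67 to 0.0526 for Eng and -0.28 to 0.27 for Esam; in jejunum tissue -0.32 to 0.42 for Tek, -0.12 to 0.73 for Cdh5 and -0.18 to 0.65 for Esam; and in jejunum organoids -0.74 to 0.18 for Esam. For control tissue segments they were -0.12 to 0.23 for Kdr, -0.48 to 0.30 for Tek and -0.83 to 0.14 for Prox1, and with ethanol -0.72 to 0.22 for Cdh5. For control organoid segments they were -1.37 to 7.95 for Flt1 and -3.37 to 5.09 for Prox1, and for organoids against tissue -5.80 to 2.57 for Prox1 in control colon, -0.60 to 0.24 for Esam in control jejunum and -8.15 to 0.0607 for Cdh5 in ethanol colon. Prox1 in the control interaction ran from -5.40 to 3.14. The cause was not tested.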

Other observations

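The ratio of Esam to Pecam1 counts, a comparison noticed after the values were seen and not tested, was 0.484 to 0.561 in the 4 control colon tissue libraries and 0.740 to 0.773 in the 4 ethanol ones, with no overlap. It was picked from several such ratios. Vsig2, the gene downstream of Esam, held means of 19.8 CPM in control and 44.2 in ethanol colon tissue. Its part in this ratio was not tested. The ratio of Lyve1 to Pecam1 counts was 0.516 to 0.909 in control colon tissue, 0.130 to 0.833 in control jejunum tissue and 14 to 50.5 in control jejunum organoids. The 12 markers of the adipocyte list summed to 176 to 1219 CPM in colon tissue and 549 to 1701 in jejunum tissue, where Lipe carried most of the sum (893 CPM in control jejunum tissue against 33.4 in control colon tissue), while Adipoq held means of 27.7 and 25.5 CPM.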
